A study of Mus musculus with 2 samples.

Results

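Surface receptors and antigens that mark early B-lineage cells were read on 2 expression arrays of cultured Eµ-Myc B-cell lymphoma, 1 labelled Cdk4+/+ and 1 labelled Cdk4-/-. The genes were Il7r, Crlf2, Kit, Flt3, Cd93, Bst1, Cd34, Spn and Cd24a. Members were all probe sets that GEO's platform annotation gives to these gene symbols alone, which were 19 of 45101 probe sets and stood for 9 of 18193 genes. Both lymphomas carried the Eµ-Myc transgene, in which the immunoglobulin heavy chain enhancer drives Myc in the B lineage, and both came from mouse lymph nodes and were grown in culture before RNA was taken. Per the labels, they differed in the Cdk4 genotype, wild type or with both alleles lost. The ages of the mice, and whether a culture was 1 clone or a pool of animals, are not given in the sources used here. The question put to these genes was where each lymphoma stands along the early B-cell stages.

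B cells form in the bone marrow from progenitors that first carry the receptor tyrosine kinases Kit and Flt3 and the sialomucin CD34. They then come to depend on the interleukin-7 receptor, whose alpha chain is encoded by Il7r and which signals through JAK kinases and STAT5 for survival and division. Surface CD43 (Spn), CD24, CD93 and BP-3 (Bst1) are among the antigens by which pro-B, pre-B and immature B cells are told apart, and Crlf2 encodes the chain that joins the IL-7 receptor alpha chain to form the receptor for the cytokine TSLP. Arrays measure transcripts, not the surface protein by which these stages are sorted.

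With 1 array per genotype there is no spread between replicates and no p-value, and precision is limited by the number of arrays. Values are MAS5 signal intensities on a linear scale. A probe set was taken as measured above a floor of 62.2, the median of all probe sets of both arrays without the control probe sets. A log2 difference is the null-labelled array minus the wild-type-labelled array. A gene that passes the floor on 1 array and not the other has a bound, given as at least that fold. Where a gene had several probe sets, the brightest stood for it. The targeted gene went against the labels: the 3 Cdk4 probe sets read 1.19, 1.18 and 3.71 on the wild-type-labelled array and 4945, 4506 and 6958 on the null-labelled array. Every direction below follows the labels as given and would turn if they were exchanged. The 3' to 5' signal ratios of the control transcripts, a sign of RNA quality, were 1.17 on both arrays for beta-actin and 0.800 and 0.811 for Gapdh. As a check of the cell type, the B-lineage genes Cd79a and Cd79b, which encode the signalling chains of the B-cell receptor, were bright on both arrays (8121 and 9216, and 7191 and 7634), as were the B-lineage factor genes Ebf1 (1779 and 2491) and Pax5 (658 and 712). In bulk RNA, fewer cells that express a gene and less of its RNA per cell cannot be told apart.

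Of the 9 genes, Bst1, Cd93 and Crlf2 were more than 2-fold higher on the null-labelled array, and none was 2-fold lower. Il7r, Flt3, Spn and Cd24a were above the floor on both arrays and differed by less than 2-fold. Kit and Cd34 were below the floor on both. Thus 3 of the 7 measured members reached 2-fold higher, where 4.26% of all 9418 measured genes did, and 0 of 7 reached 2-fold lower, where 3.27% did. The median difference was 0.29 over the 7 members and 0.00 over all measured genes. The genes were chosen with earlier results of these arrays known, among them the higher signals of Bst1 and Cd93, so the count describes the members and is no independent evidence of a direction.

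The only error these arrays allow is the disagreement of probe sets that read 1 gene. Over 3082 genes with a pair of measured probe sets, those that share sequence with other transcripts left out, the SD of a log2 difference was 0.31, and 95% of pairs lay within 0.84 of each other. The SD was 0.38 for pairs with a mean signal up to 318 and 0.22 for those from 1134 up. How far cultures or tumours of the same genotype vary is not part of it.

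**Figure D1:**
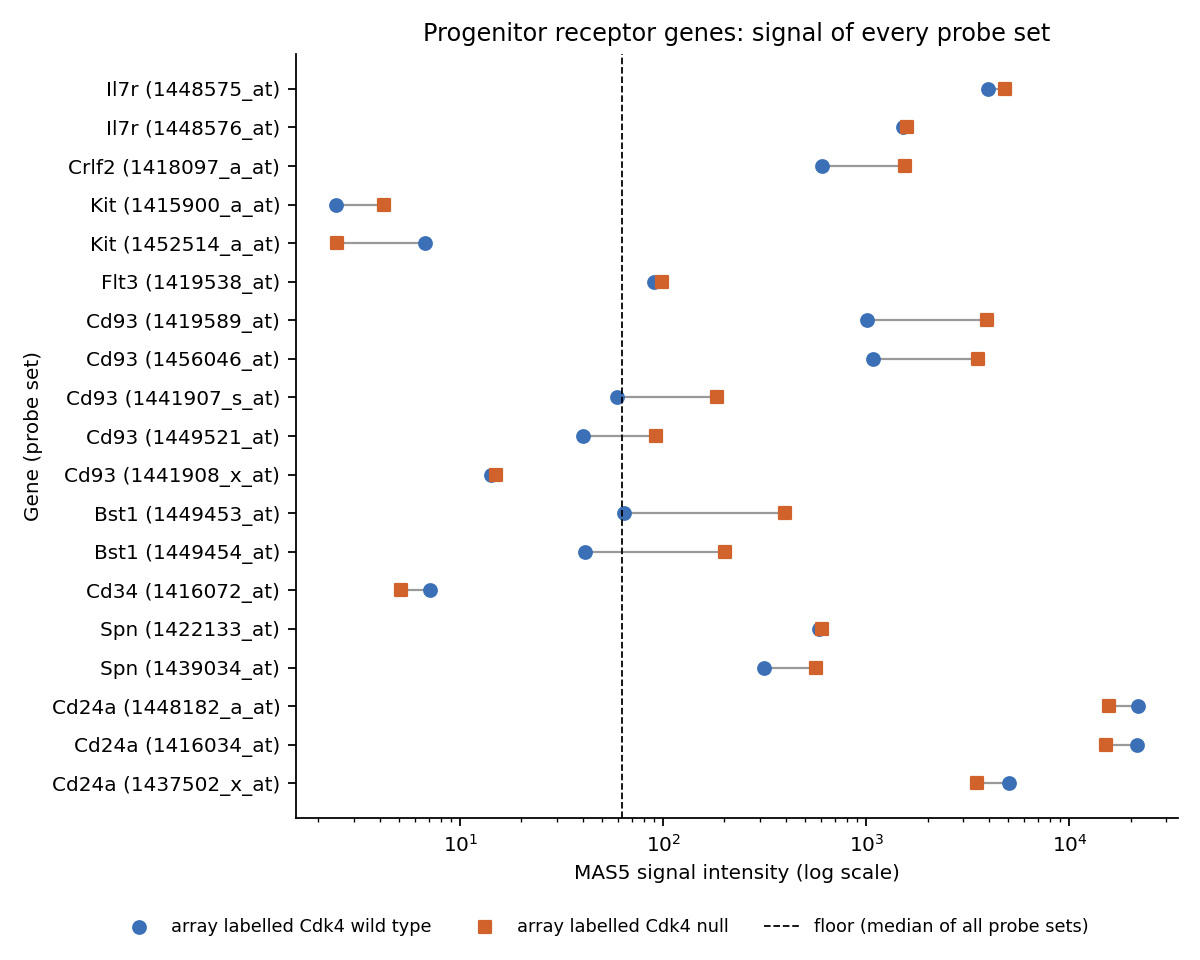
Signal intensity (horizontal, log scale) of each of the 19 probe sets of the 9 genes on the wild-type-labelled array (circles) and the null-labelled array (squares), with the floor of 62.2 as a dashed line. Bst1, Crlf2 and the brightest Cd93 probe sets lie to the right on the null-labelled array, Cd24a lies slightly to the left, and Kit and Cd34 stay left of the floor on both arrays.

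Il7r, the alpha chain shared by the IL-7 and TSLP receptors, was bright on both arrays and differed by less than 2-fold. Its brighter probe set read 3958 on the wild-type-labelled array and 4828 on the null-labelled array, above 95.5% and 96.5% of all probe sets of the array. The other read 1507 and 1588. The log2 differences were 0.29 and 0.08. Of these, 0.29 lies above and 0.08 below the SD of 0.22 of probe sets this bright, and the gap between them was 0.21. That gap lies inside 0.64, within which 95% of pairs this bright lay. With 1 difference above the SD and 1 below it, the probe sets give no clear difference of Il7r between the arrays.

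Crlf2, the other chain of the TSLP receptor, was 2.57-fold higher on the null-labelled array, at 606 against 1557. Its log2 difference of 1.36 was larger than that of 97.6% of measured genes. It has a single probe set here, of the kind that matches several transcripts (marked a at the end of its name), so no other probe set bears on it. It stood above 78.5% of probe sets on the wild-type-labelled array and above 88.5% on the other.

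The promoters of these chains are shown because the pair forms a single receptor while the signal of Crlf2 differed by more than 2-fold and that of Il7r did not. Both are the 250 bases before the transcription start in RefSeq's annotation of the mouse build GRCm38.p6, on the minus strand, at chr15:9529877-9530126 for Il7r and chr5:109558994-109559243 for Crlf2. Capitals mark matches to TTCNNNGAA, the palindrome that STAT factors bind.
Il7r: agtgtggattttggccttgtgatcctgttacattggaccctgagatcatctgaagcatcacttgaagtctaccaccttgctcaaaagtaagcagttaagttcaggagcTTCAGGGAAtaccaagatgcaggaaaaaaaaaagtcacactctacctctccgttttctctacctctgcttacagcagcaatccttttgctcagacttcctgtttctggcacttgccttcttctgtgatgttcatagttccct
Crlf2: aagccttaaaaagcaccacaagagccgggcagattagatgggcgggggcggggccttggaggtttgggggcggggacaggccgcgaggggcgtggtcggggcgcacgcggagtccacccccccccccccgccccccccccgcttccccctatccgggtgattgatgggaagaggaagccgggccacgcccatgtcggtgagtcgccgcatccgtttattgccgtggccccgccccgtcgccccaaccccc
In the windows of 300 bases searched on both strands, from 250 bases before to 50 after the start, Il7r held 1 match, which begins at position -142 from the start, and Crlf2 held none. Such a match is found in 8.30% of all 32851 promoter windows, so it describes the sequence, and binding was not measured. The EBF motif and the octamer ATTTGCAT were found in neither promoter, and they occur in 0.904% and 1.74% of windows. The windows also differed in base composition, with 1 CpG in that of Il7r and 31 in that of Crlf2, against a median of 7 over all windows. Of the 9 genes, 6 had a promoter in the table, and among those Il7r alone held a match to any of these motifs.

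The genes that feed into and act below these receptors were read from lists of ligand and signalling genes. Of the ligands, Il7, Tslp and Kitl, the last encoding the Kit ligand, were below the floor on both arrays. Of 18 genes for signalling of the IL-7 and TSLP receptors, 16 were measured, of which 3 were 2-fold higher and 1 was 2-fold lower. Their median difference was 0.29 and turned to -0.10 with a higher floor of 458. No partner chain, such as the common gamma chain, was among the 18. Jak3, the kinase that works with the common gamma chain, stood at 261 against 805 (3.09-fold higher on the null-labelled array). Jak1, the kinase bound to the IL-7 receptor alpha chain and named after its values were seen, stood at 1490 against 2810, short of 2-fold.

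The feedback inhibitors of this pathway differed in opposite directions. Socs2 was 3.02-fold lower on the null-labelled array, at 3161 against 1045, and its other measured probe set that shares no sequence stood at 163 against 71.2. Socs3 was at least 12.3-fold higher on that array, from 6.89 to 765, with 15.1 against 564 and 8.69 against 480 on the remaining probe sets. Cish, a STAT5 target named after its values were seen, stood at 119 against 87.4. The genes of STAT5, which carries the IL-7 signal to the nucleus, were likewise picked with their values known, with Stat5a at 788 against 783 and Stat5b at 881 against 822, while Stat3 was 2.13-fold higher at 972 against 2067. The other Stat3 probe sets measured on both arrays, marked a, read 1016 against 1952 and 93.7 against 92.0. Of the survival genes, Bcl2l1 stood at 208 against 498 and was 2.39-fold higher, but its other measured probe set, marked a, read 106 and 112. Mcl1, picked with its values known, stood at 7453 against 5961, short of 2-fold.

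Kit, the receptor tyrosine kinase for stem cell factor, was below the floor on both arrays by both of its probe sets. They read 2.44 and 4.20, and 6.67 and 2.46, on the wild-type-labelled array and the null-labelled array in turn, where the highest of these values stood above 15.6% of the probe sets of its array. The order of the arrays differed between the probe sets, and values below the floor have none. Cd34, the sialomucin of stem cells, progenitors and endothelium, read 7.10 and 5.13 and was likewise below the floor on both. Neither gene has a fold. Of all genes, 41.1% were below the floor on both arrays.

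Flt3, the receptor tyrosine kinase of multipotent and lymphoid progenitors, lay just above the floor, at 89.6 and 98.3. The difference of 0.13 was under the SD of 0.38 for dim probe sets. Of 18 genes for signalling of the Kit and Flt3 kinases, 16 were measured, of which 3 were 2-fold higher and 1 was 2-fold lower, with a median of 0.43. The former were the inhibitory phosphatase genes Inpp5d, at 1330 against 3673, and Ptpn6, at 2153 against 5125, and the inhibitory adaptor gene Sh2b3, at 635 against 1299. The latter was Sos1, an exchange factor that activates Ras, at 1044 against 435. The other probe set of each gene measured on both arrays went the same way but was short of 2-fold. It read 706 against 1286 for Inpp5d, 952 against 1610 for Ptpn6, 211 against 394 for Sh2b3 and 231 against 151 for Sos1. These genes serve many receptors and are not read here as signs of Kit or Flt3 activity.

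Cd93, a C-type lectin-like glycoprotein of pro-B to immature B cells, was 3.91-fold higher on the null-labelled array, at 1005 against 3929. A further probe set read 1082 against 3561, which is 3.29-fold, and the log2 differences of 1.97 and 1.72 differed by 0.25. Another 2 probe sets were above the floor on the null-labelled array alone, at 59.1 against 184 (at least 2.96-fold) and 40.3 against 91.5 (at least 1.47-fold). The last read 14.1 and 15.0, below the floor on both. Both probe sets measured on the 2 arrays were thus higher on the null-labelled array. The direction of the 2 that passed the floor there alone follows from the floor. The mean over the 5 probe sets, of which the dim ones sit at the floor, gave a difference of 1.16.

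Bst1, the surface enzyme BP-3 of bone marrow stromal cells and of B-lineage and myeloid precursors, had the largest difference of the 9 genes. Its brighter probe set stood at 63.7 on the wild-type-labelled array, just above the floor, and at 399 on the null-labelled array, a fold of 6.26 that is close to a bound. The other stood at 40.9 against 201 and was at least 3.23-fold higher. The log2 difference of 2.65 was larger than that of 99.6% of measured genes, and that of Cd93 larger than 99.0%. Both exceed the SD of a log2 difference at their brightness, 0.38 for Bst1 and 0.22 for Cd93. That SD covers the disagreement of probe sets alone.

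Spn, which encodes the sialomucin CD43 of pro-B cells, T cells and myeloid cells, had probe sets that gave different answers. The brighter read 583 and 606, a difference of 0.06, and the other 314 and 564, a difference of 0.85. The gap of 0.79 between them lies near the edge of the range that holds 95% of probe set pairs. Neither reached 2-fold, and the arrays do not place the difference of Spn more closely than these values.

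Cd24a, the GPI-anchored glycoprotein known as heat-stable antigen, was among the brightest transcripts of both arrays and was the only measured member with a lower signal on the null-labelled array. Its probe sets read 21831 and 15586, 21633 and 15222, and 5042 and 3504, the first of these above 99.7% and 99.6% of probe sets. The log2 differences of -0.49, -0.51 and -0.52 lay within 0.04 of each other. They did not reach 2-fold, and the difference shrank to -0.14 under quantile normalization of the arrays. Of its probe sets, 2 are of the shared kinds, marked a and x, and the one without a mark read 21633 and 15222.

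**Figure D2:**
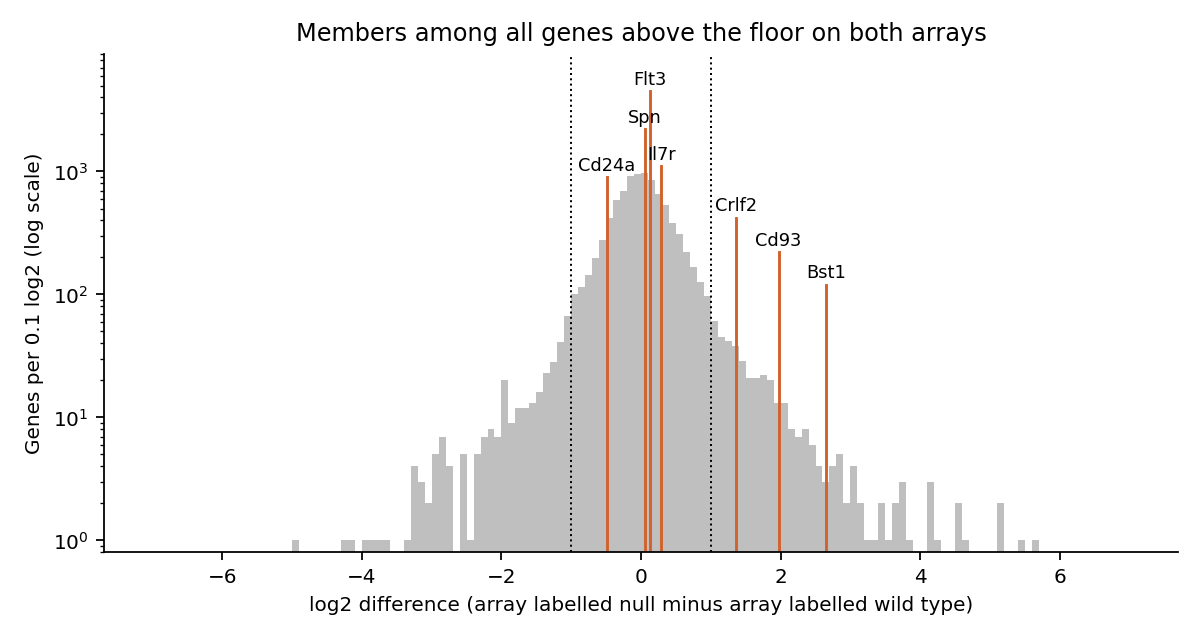
Distribution of the log2 difference (horizontal, null-labelled minus wild-type-labelled array) over all 9418 measured genes, in bins of a log-scaled number of genes, with the 7 measured members as vertical lines whose heights carry no value. Bst1, Cd93 and Crlf2 lie beyond the dotted line at 2-fold, and the other members lie inside both lines.

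The remaining stage genes were set beside the receptors. Among 6 pre-B receptor and recombination genes, 4 of the 5 measured were 2-fold higher on the null-labelled array. Vpreb1 and Igll1, which encode the surrogate light chain, stood at 129 against 4616 and 140 against 6291. The latter rests on a probe set that shares sequence, and the other Igll1 probe set read 67.6 against 20.5. The recombinase genes Rag1 and Rag2 stood at 499 against 1531 and 118 against 373. Dntt, the terminal transferase of pro-B cells, named after its values were seen, was below the floor by all 3 probe sets, with its brightest at 41.2 and 45.2.

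Of 13 other surface markers of pro-B and pre-B cells, 11 were measured, of which 3 were 2-fold higher and 1 was 2-fold lower, with a median of 0.09. Enpep, the BP-1 aminopeptidase of late pro-B and pre-B cells, stood at 981 against 3352. The integrin gene Itga4 stood at 1055 against 3719, and Cd2, a lymphocyte adhesion gene, at 346 against 931. Ly6d, an antigen that appears at B-lineage commitment, stood at 1900 against 128 and was 14.9-fold lower. Il2ra, the CD25 antigen of pre-B cells, was above the floor on the wild-type-labelled array alone, at 123 against 51.0, and was at least 1.97-fold lower on the other.

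Markers of later stages did not run in the opposite direction as a group. Of 14 surface markers of immature and mature B cells, 9 were measured, 4 of which were 2-fold higher on the null-labelled array and 0 lower, with a median of 0.08. That median was 1.19 with a higher floor of 458, 1.10 without shared probe sets, and 0.54 with the mean over probe sets or with chromosome medians set to 0. The BAFF receptor gene Tnfrsf13c stood at 187 against 1258, Cd37, a tetraspanin gene, at 2263 against 6926, H2-Ab1, a class II chain, at 568 against 1745, and Tnfrsf13b, the receptor TACI, at 1458 against 3319. Cd40 was at least 3.63-fold lower there, at 226 against 38.3.

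Of 27 early B-lineage transcription factor genes, 24 were measured, 4 of which were 2-fold higher and 0 lower, with a median of 0.40. Hhex, a homeobox factor of progenitors, stood at 637 against 2269 and Lmo2, a progenitor cofactor, at 145 against 496. Bcl11a, a factor early B cells require, stood at 616 against 1867, and Irf8 at 2059 against 4743. Of 12 stem and multipotent progenitor genes, 7 were below the floor on both arrays and 3 were measured, among them Slamf1, which activated lymphocytes also express, at 87.1 against 336. Over all 15 lists, 36 of the 124 listed genes above the floor on at least 1 array were at least 2-fold higher on the null-labelled array (29.0%), measured or bound, and 4 were lower (3.23%). Among all such genes 5.84% were higher and 4.06% lower. The lists too were chosen with earlier results known.

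**Figure D3:**
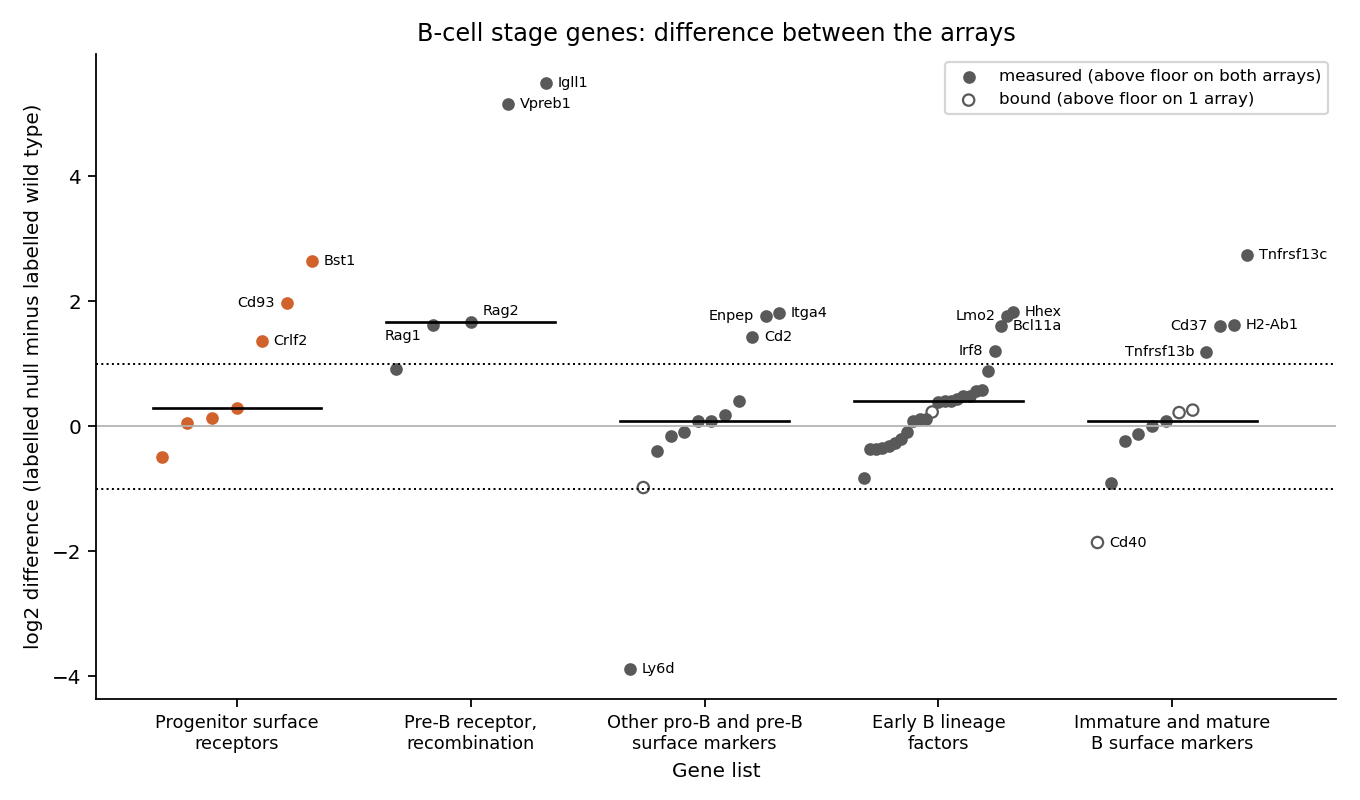
Log2 difference (vertical, null-labelled minus wild-type-labelled array) of each gene above the floor on at least 1 array, in the 9 receptor genes (coloured) and 4 lists of B-cell stage genes. Filled points are measured on both arrays, open points are bounds, bars are medians of measured genes, and dotted lines mark 2-fold. Genes of early and of later stages both lie above the upper line, and Ly6d and Cd40 lie below the lower.

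Placed side by side, the arrays shared the absence of signal above the floor for Kit, Cd34 and Dntt, a near-floor Flt3, and bright Il7r and Cd24a. They differed in Bst1, Cd93, Crlf2, Enpep, Vpreb1, Igll1, Rag1 and Rag2, which were higher on the null-labelled array. Ly6d was lower there, as was Il2ra by a bound short of 2-fold. Of 9 measured markers of later stages, 4 were 2-fold higher on the null-labelled array, Tnfrsf13c the most, and 0 were 2-fold lower. Cd40 was at least 3.63-fold lower by a bound. By sign 6 were higher and 3 lower. Of these 3, Ighm and Cd55, named after their values were seen, had probe sets that went in different directions. The brightest of Ighm read 21937 against 20103, and another 128 against 3234. With genes of early and of later stages both among those higher there, these signals did not order the lymphomas along a single line of stages.

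Among markers of other cells that can express these genes, some were also higher on the null-labelled array. Others were lower there or below the floor on both arrays. Of 15 macrophage and granulocyte markers, 12 were above the floor on the null-labelled array and 4 on the wild-type-labelled array. The 4 measured on both were all higher on the former. The other 8 passed the floor on the null-labelled array alone, so their direction follows from the floor. Of all 18193 genes, 9418 passed it on both arrays. A further 666 passed it on the null-labelled array alone and 636 on the wild-type-labelled array alone. The summed intensity of the 15 markers was 459 on the wild-type-labelled array and 4649 on the null-labelled array. Lyz1, at 5.74 against 1890, and Lyz2, at 70.1 against 1368, led the latter sum. The Lyz1 value comes from a probe set that shares sequence, and the only Lyz1 probe set without shared sequence was at 30.2 and 13.1, below the floor on both. The sum may thus count RNA of another gene under Lyz1, and that part was not tested. The granulocyte genes S100a8, S100a9 and Elane, named after their values were seen, were below the floor on both. Stromal and endothelial markers summed to 1275 and 2401, with 6 of 15 above the floor on each array, but only 3 of them on both. Of the matrix genes, Col1a2 stood at 85.5 against 591. Col3a1, at 33.6 against 286, and Sparc, at 4.55 against 273, were above the floor on the null-labelled array alone. The Col1a2 and Col3a1 values come from probe sets marked a at the end of the name. The other Col3a1 probe set read 7.58 and 21.3, below the floor on both. Of the endothelial genes in that list, Pecam1, which leukocytes also express, read 695 and 777 and Eng 114 and 102, above the floor on both arrays. Cdh5 read 68.2 and 20.2 and Kdr 101 and 8.96, above it on the wild-type-labelled array alone, and Tek and Emcn were below it on both. These 4 were picked with their values known. All 7 mast cell markers were below the floor on both arrays, as were 7 of 10 T and NK cell markers. Of T and NK cell markers, which bear on Spn, Thy1 was at least 3.23-fold higher on the null-labelled array, at 21.0 against 201. Of 5 plasmacytoid dendritic cell markers, Cox6a2 stood at 163 against 758, while Siglech, named after its values were seen, read 9.57 and 59.4, below the floor on both. Of 6 erythroid markers, which bear on Cd24a, 4 were below the floor on both arrays and Car2 stood at 69.1 against 585. The part of macrophage and stromal transcripts in the signals of Bst1, Cd93 and Crlf2 was not tested.

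The higher signals of Bst1, Crlf2 and Cd93 were not shared by the nearest measured genes. Genes above the floor on 1 array alone or on neither were passed over, so the directly adjacent gene may be missing. Bst1, Crlf2, Kit and Flt3 all lie on chromosome 5, whose 612 measured genes had a median difference of -0.16. Around Bst1, 2 of the 10 nearest measured genes were above 0, with a range from -0.74 to 0.42. Around Crlf2, 2 of 10 were above 0, with a range from -1.20 to 0.16, and around Cd93, on chromosome 2, 3 of 10 were, with a range from -0.53 to 0.34. With the median of each chromosome set to 0, the differences were 2.80 for Bst1, 1.52 for Crlf2 and 1.91 for Cd93. Around Il7r on chromosome 15, the nearest measured gene on one side was Capsl, named after its values were seen, which stood at 620 against 71.6 and was 8.66-fold lower on the null-labelled array by its only probe set. The other 9 genes beside Il7r lay between -0.18 and 0.28.

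**Figure D4:**
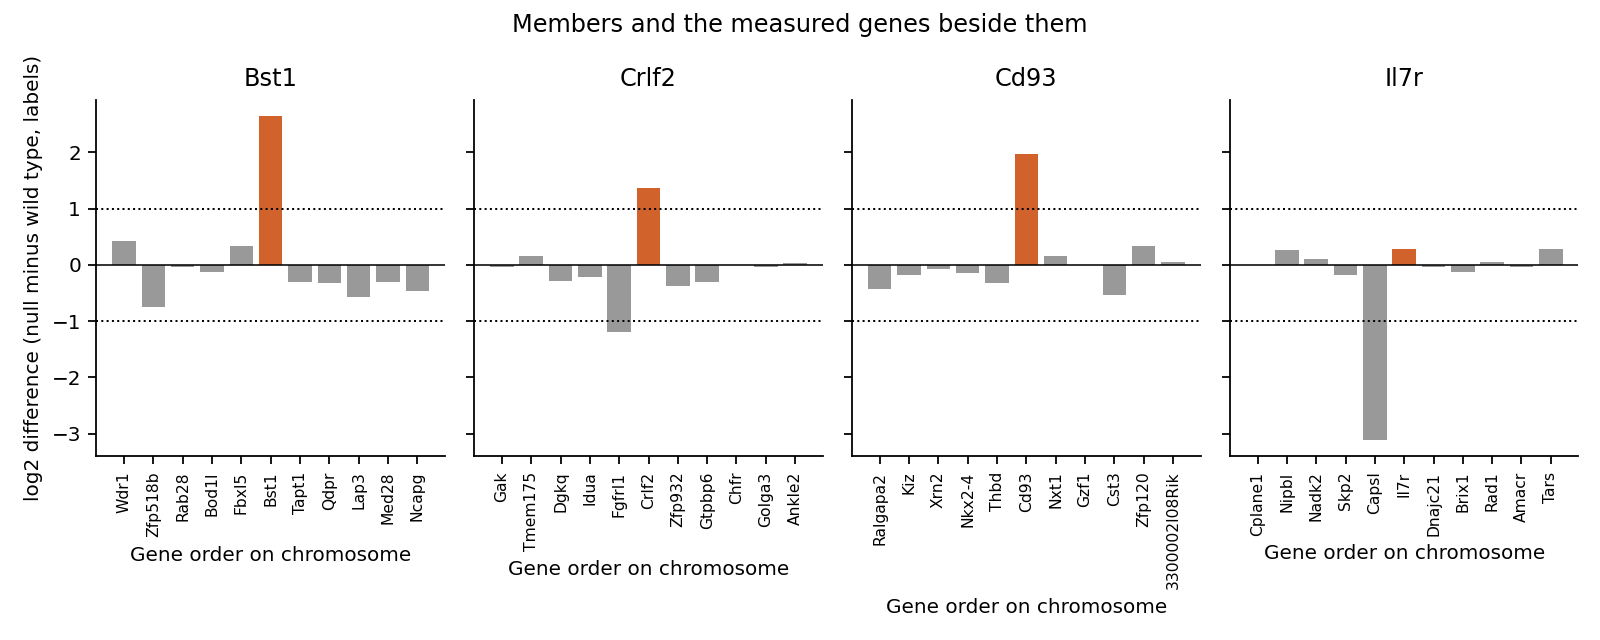
Log2 difference (vertical, null-labelled minus wild-type-labelled array) of Bst1, Crlf2, Cd93 and Il7r (coloured bars) and of the 5 nearest measured genes on each side in chromosome order (grey bars), with dotted lines at 2-fold. Bst1, Crlf2 and Cd93 stand above neighbours of at most 0.42, and Capsl stands at -3.11 beside Il7r at 0.29.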

How the data were processed

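RNA of 2 cultured mouse lymphomas was measured, 1 array each, from 6 µg of total RNA per the labels' protocols. The authors deposited linear intensities, which the submitters' processing notes credit to MAS5 without a version in the labels used here. The mean after trimming 2% from each end was 500.003 on both arrays, so rescaling changed nothing. Intensities below the median of all probe sets without the 64 control probe sets were set to it before log2 was taken. Of the other probe sets, GEO's platform annotation gave 1 symbol for 34945, several for 932 and none for 9160. Of 194 genes listed beside the members, 176 had a probe set with their symbol alone. MAS5 detection calls were not used here.

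With 1 array per group no test was run. The members and lists were chosen with earlier results of these data known. The genes named are Cdk4, the 9 members and, of each list, up to 4 with the largest measured difference and up to 2 with the largest bound. Outside this rule are the B-lineage genes that check the cell type, the receptors' ligands, and genes said to be picked or named with their values seen. With 2 arrays a gene has 1 difference, so no gene was named for a pattern like a member's. The calculation was tested on simulated data. Python 3.11.15, pandas 2.3.3 and numpy 2.4.6 were used, and RefSeq tables of GRCm38.p6 gave gene order and promoters.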

Additional observations from a re-analysis of the deposited data

How the results depend on the processing

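The 9 genes and the lists were recomputed under 7 alternatives: the floor at the 25th or 75th percentile of the signals, no floor with a pseudocount of 16, quantile normalization, the mean over a gene's probe sets, shared probe sets left out, and chromosome medians set to 0. No member measured on both arrays changed sign. Of 46 member values 4 moved by more than the probe set SD: Cd24a to -0.14 under quantile normalization, and, with the mean over probe sets, Cd93 to 1.16, Bst1 to 2.17 and Spn to 0.45. With the floor at the 75th percentile, at 458, Bst1 and Flt3 had no value and 4 members in place of 2 were below it on both arrays. With shared probe sets left out, Crlf2 and Kit had no value and 1 member was below the floor. Of all listed genes, 36 were higher by 2-fold. They became 49 with the floor at the 25th percentile, 48 with the pseudocount and 19 with the floor at the 75th percentile. Over all genes the count moved likewise, from 626 to 1252, 1064 and 201 in turn. The 4 listed genes that were lower became 9 with the floor at the 25th percentile, 8 with the pseudocount and 2 with the mean over probe sets. Over all genes 435 became 1192, 900 and 321 in turn. Of 64 list medians 7 moved by more than the probe set SD, among them mature B-cell markers, from 0.08 to 1.19 with the higher floor and to 1.10 without shared probe sets. IL-7 and TSLP receptor signalling went from 0.29 to -0.10 with the higher floor. The probe set SD was 0.29 with shared probe sets kept. No paired analysis was possible because each group holds 1 array, and for the same reason none could be left out. The cause of these shifts was not tested.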
